A study of Mus musculus with 8 samples.

Results

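Described here are 8 genes of the mouse that are known targets of the liver X receptors (LXRs), most of which act in the export or handling of cholesterol and phospholipid: *Abca1*, *Abcg1*, *Apoe*, *Pltp*, *Mylip*, *Lpcat3*, *Smpdl3a* and *Rgs16*. They were chosen by name, and their probes were found through the RefSeq accession that the array gives for each probe. The 8 genes had 9 probes, out of 39429 probes and 19751 gene symbols on the array. RNA came from AtT20 cells, a mouse line of pituitary corticotroph tumor cells that make ACTH, so that all samples are of 1 cell line. Both groups were kept for 48 hr in DMEM with 1% stripped serum, the control group (4 samples) without agent and the HX630 group (4 samples) with HX630 at 10 μM, a synthetic agonist of all retinoid X receptors (RXRs). Each sample was read on 1 single-color array, and the labels number the samples as replicates without saying whether they came from separate cultures, so the p-values measure the spread between these samples only.

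LXRα (gene *Nr1h3*) and LXRβ (gene *Nr1h2*) are nuclear receptors that bind oxysterols, the oxidized forms of cholesterol, and sit on DNA as heterodimers with an RXR. The heterodimer is called permissive because a ligand of the RXR alone can switch it on. Its classical targets lower the free cholesterol of a cell: transporters load cholesterol onto lipoproteins, apolipoprotein E and phospholipid transfer protein shape those particles, and the ubiquitin ligase MYLIP (also called IDOL) removes the receptors that take lipoproteins up. For HX630 itself, the study cites a report on macrophage cell lines in which it did not activate the LXR-RXR heterodimer. There it raised ABCA1 in differentiated cells, through RXR paired with the nuclear receptor PPARγ.

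The level of a gene is given as the log2 of the processed array intensity minus the 75th percentile of that array, so that 0 stands for that percentile. Levels of different probes are not compared, since probes differ in how well they bind. For the same reason, the sums of marker levels given below weigh their probes unequally and are compared between the groups only. A difference is the mean of the 4 HX630 arrays minus the mean of the 4 control arrays on that log2 scale. A gene was called higher or lower when limma gave an adjusted p below 0.01 over all 28553 probes tested and the fold change was above 1.5. The 75th percentile of the intensities was between 1335 and 1899, the share of probes marked well above background ran from 69.7% to 73.5%, and no probe was saturated. All control arrays were on 1 slide with 1 scan and all HX630 arrays on another, so that the treatment cannot be told apart from slide and scan. Scaling to the 8 spike-in probes in place of the percentile adds 0.22 to every difference, and its values are given where they matter. The intensities come from RNA of whole wells, in which fewer cells with a transcript and less of it per cell cannot be told apart.

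The LXR target genes went different ways. Of the 7 that could be tested, *Lpcat3*, *Rgs16* and *Mylip* rose and none was called lower. *Apoe* and *Smpdl3a* were lower on every HX630 array but by less than the fold threshold, and *Abcg1* and *Pltp* were not called. The only probe of *Abca1* was too close to background to be tested. Among all 15320 genes tested, 8.38% were called higher and 11.2% lower, 19.5% in all. The counts of every list below are to be read beside these shares. The median difference of the 7 genes was 0.10, against -0.03 over all genes, and the range was from -0.58 to 1.33. The groups of 4 arrays did not overlap for 6 of the 7 genes (4 higher, 2 lower), as they did not for 61.5% of all genes (28.6% higher, 32.8% lower).

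**Figure D1:**
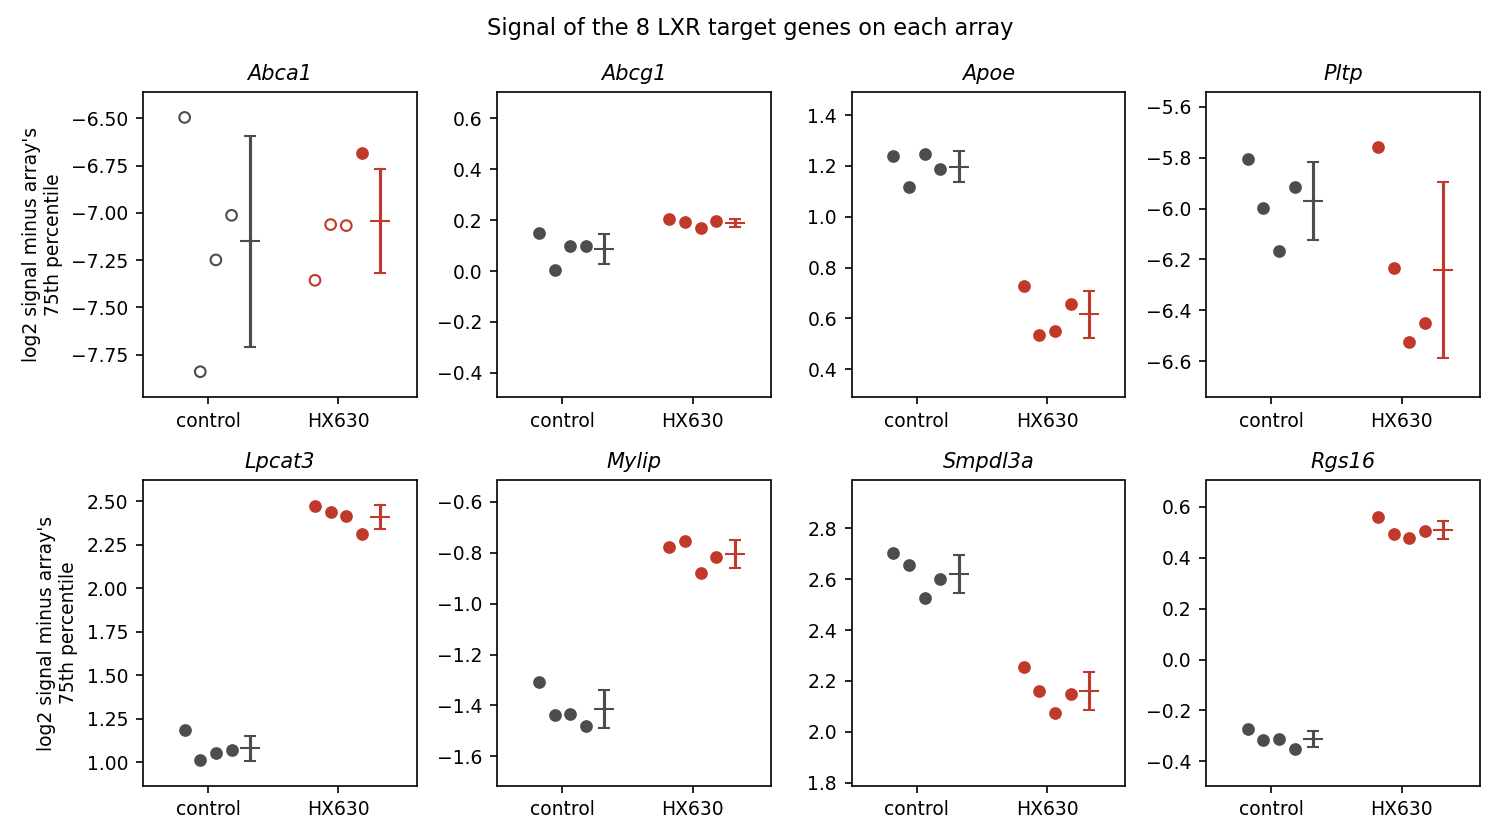
Signal of the 8 LXR target genes on each array (log2 intensity minus the 75th percentile of the array, each panel with its own vertical axis); points are single arrays, filled where the probe was well above background and open where it was not, and bars are the mean ± SD of 4 arrays. *Lpcat3*, *Mylip* and *Rgs16* are higher on all HX630 arrays, *Apoe* and *Smpdl3a* are lower, and 7 of the 8 points of *Abca1* are open.

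Neither of the 2 cholesterol transporters of the set was called. *Abca1* encodes the transporter that loads cholesterol and phospholipid onto lipid-poor apolipoprotein A-I, the first step of HDL formation. Its processed intensities were 14.8, 5.92, 12.2 and 13.0 on the control arrays and 11.0, 13.8, 13.6 and 18.5 on the HX630 arrays. Only HX630 replicate 4 was marked well above background, and the groups overlapped. For this reason *Abca1* has neither a test nor a fold change here. The log2 signal was -7.15 ± 0.56 (SD, n = 4) in the control and -7.04 ± 0.28 (SD, n = 4) with HX630, which lies at the floor of the arrays, where the lowest signals well above background were between -7.56 and -6.48. The readout rests on 1 probe, and says only that this probe gave no signal clearly above background.

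*Abca1* carries a well-known binding element of the LXR-RXR heterodimer, so its sequence is shown here beside that of the other mouse promoters that hold the same letters. The windows searched reach from 250 bases before the start of a gene to 50 bases after it (RefSeq, GRCm38.p6), and 6 of the 8 genes have one, *Abcg1* and *Smpdl3a* being without an entry. The heterodimer prefers a direct repeat of the hexamer AGGTCA with a spacer of 4 bases (DR4), and this repeat was searched on both strands. In the window of *Abca1* the best match had 3 mismatches in the 12 fixed bases and read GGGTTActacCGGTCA on the strand opposite to the gene, from -67 to -52 relative to the start. Matches with 3 or fewer mismatches occur in 21.9% of all 32851 windows. The exact letters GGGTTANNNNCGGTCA, which were looked for after the match in *Abca1* had been seen, occur in 3 windows (0.00913%), those of *Abca1*, *Fasn* and *Srebf1*. In the lines below each sequence runs 5′ to 3′ along its gene, and the capitals mark the hexamers of the repeat, which lies on the opposite strand. The last line shows the best match of *Lpcat3*, the gene that rose most, which has 4 mismatches, as few as in 76.9% of all windows.
Abca1: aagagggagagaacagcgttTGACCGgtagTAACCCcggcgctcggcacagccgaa
Fasn: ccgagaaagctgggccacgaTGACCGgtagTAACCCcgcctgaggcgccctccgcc
Srebf1: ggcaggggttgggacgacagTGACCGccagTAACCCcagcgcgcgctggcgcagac
Lpcat3: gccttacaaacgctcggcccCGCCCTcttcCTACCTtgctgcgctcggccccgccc

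These stretches are chr4:53159927-53159982 (minus strand) for *Abca1*, chr11:120824737-120824792 (minus strand) for *Fasn*, chr11:60210618-60210673 (minus strand, the third of the 3 start sites of *Srebf1*) and chr6:124662985-124663040 (plus strand) for *Lpcat3*. The best matches in the windows of *Apoe* and *Rgs16* also had 4 mismatches and those of *Pltp* and *Mylip* 5, and none of the 8 windows of the set held an exact AGGTCA hexamer on either strand, which 16.3% of all windows do. A match is a description of these letters only, and elements outside the windows were not searched.

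Of the 3 genes with the shared repeat, *Abca1* was not tested and *Srebf1* and *Fasn* were not called. *Srebf1*, which encodes the transcription factor SREBP-1 of fatty acid synthesis, was at -1.25, -1.29, -1.47 and -1.35 on the control arrays and at -1.05, -1.20, -1.15 and -1.20 on the HX630 arrays. The groups did not overlap, but the difference of 0.19 (95% interval 0.05 to 0.33, adjusted p = 0.0234) was not called. With spike-in scaling it was 0.41 (adjusted p = 2.21e-04), still under the fold threshold. *Fasn*, the fatty acid synthase, differed by 0.35 (adjusted p = 7.67e-04), or 1.27-fold, and was not called.

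*Abcg1* encodes a transporter that passes cholesterol to HDL particles that already hold lipid. Its signal was 0.15, 0.0042, 0.10 and 0.10 on the control arrays and 0.20, 0.19, 0.17 and 0.20 on the HX630 arrays. All HX630 arrays lay above all control arrays, by a margin smaller than the spread of the controls. The difference was 0.10 (95% interval 0.01 to 0.19, adjusted p = 0.0483), a fold change of 1.07, and was not called. The value depended on the processing, being -0.01 (adjusted p = 0.825) with normexp background correction, 0.19 (adjusted p = 0.00591) with scaling to the median and 0.32 (adjusted p = 0.00118) with scaling to the spike-in probes. Under each of these the fold change stayed under 1.5.

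Neither of the secreted lipid carriers was called. *Apoe* encodes apolipoprotein E, which accepts cholesterol from transporters and is the ligand of lipoprotein receptors. The probe of *Apoe* is printed in 10 spots per array, and their mean was 1.24, 1.12, 1.25 and 1.19 on the control arrays and 0.73, 0.53, 0.55 and 0.66 on the HX630 arrays. The highest HX630 array lay clearly below the lowest control. The difference was -0.58 (95% interval -0.71 to -0.45, adjusted p = 5.9e-05), which leaves 66.9% of the control signal. This is a fold change of 1.496, so *Apoe* narrowly missed the call. It was called lower without control replicate 2 (-0.61), without HX630 replicate 1 (-0.62), without HX630 replicate 4 (-0.59) and with array weights (-0.62), whereas scaling to the spike-in probes put it at -0.36.

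*Pltp* encodes the phospholipid transfer protein, which remodels HDL in plasma. Its only probe was dim, with signals of -5.81, -6.00, -6.17 and -5.91 on the control arrays and -5.76, -6.23, -6.53 and -6.45 on the HX630 arrays. HX630 replicate 1 lay above every control array while the other 3 HX630 arrays lay below all of them. The difference of -0.27 (95% interval -0.66 to 0.13, adjusted p = 0.209) was within the spread of the arrays. Without HX630 replicate 1 it was -0.43 (adjusted p = 0.0117) and without HX630 replicate 3 it was -0.17. It was -0.45 with normexp correction, -0.10 with quantile normalization and -0.05 with spike-in scaling, and *Pltp* was called under none of these.

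*Lpcat3* rose more than any other gene of the set, and *Smpdl3a* was lower. *Lpcat3* encodes a lysophospholipid acyltransferase that places polyunsaturated fatty acids into membrane phospholipids. Its signal was 1.18, 1.01, 1.06 and 1.07 on the control arrays and 2.47, 2.44, 2.41 and 2.31 on the HX630 arrays. The gap between the groups was far wider than the range of either. *Lpcat3* rose by 1.33 (95% interval 1.21 to 1.45, adjusted p = 6e-07), or 2.51-fold, and stayed between 1.29 and 1.55 under all other settings that kept all arrays.

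*Smpdl3a* encodes a secreted phosphodiesterase related to acid sphingomyelinase. It was at 2.70, 2.66, 2.53 and 2.60 on the control arrays and at 2.25, 2.16, 2.07 and 2.15 on the HX630 arrays. Every HX630 array was below every control array. The difference of -0.46 (95% interval -0.59 to -0.34, adjusted p = 1.81e-04) left 72.6% of the control signal and fell short of the fold threshold. With spike-in scaling it was -0.24 (adjusted p = 0.00556). The sphingomyelinase relative *Smpd1*, the lysosomal enzyme itself, fell by 0.82 (adjusted p = 9.61e-07).

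*Mylip* encodes the ubiquitin ligase that marks lipoprotein receptors, VLDLR and LRP8 among them, for degradation. Its brighter probe was at -1.31, -1.44, -1.43 and -1.48 on the control arrays and at -0.78, -0.75, -0.88 and -0.82 on the HX630 arrays. The groups did not overlap, and *Mylip* rose by 0.61 (95% interval 0.49 to 0.72, adjusted p = 2.29e-05). This is a fold change of 1.52, just past the threshold. The other probe lay near background, with a difference of 0.32 (adjusted p = 0.0978) and overlapping groups. The mean of both probes (0.46) and normexp correction (0.58) each kept the direction and ended the call.

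Of the receptors on which MYLIP acts, the transcript of *Vldlr* fell and that of *Lrp8* was not called. *Vldlr*, the receptor of very-low-density lipoprotein, was at 2.62, 2.64, 2.61 and 2.54 on the control arrays and at 1.62, 1.59, 1.56 and 1.59 on the HX630 arrays. It fell by 1.01 (95% interval -1.10 to -0.93, adjusted p = 3.78e-07), and its other probe gave -0.97. *Lrp8*, a receptor of apolipoprotein E and reelin, had overlapping groups, with a difference of 0.10 (95% interval -0.05 to 0.25, adjusted p = 0.22) by its brighter probe and of -0.08 by the other. The former was 0.19 with median scaling, 0.32 (adjusted p = 0.00422) with spike-in scaling, 0.16 with normexp correction, 0.01 as the mean of both probes and 0.06 without HX630 replicate 1, and *Lrp8* was called under none of these. The MYLIP ligase acts on the receptor proteins, which were not measured on the arrays. Of the 5 genes on the list of lipoprotein receptors, 3 were called lower and none higher, with a median of -0.86. Over all genes tested, 11.2% were called lower and 8.38% higher. The receptors called lower included *Lrp1* (-0.90, adjusted p = 9.31e-07), a large scavenging receptor. *Lrpap1*, the chaperone of this receptor family, fell by 0.86 (adjusted p = 8.44e-07), but its dimmer probe gave -0.14, and the mean of both was not called (-0.50).

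*Rgs16* encodes a GTPase-activating protein that shortens signaling through Gi and Gq proteins, and has no direct part in lipid transport. Its signal was -0.27, -0.32, -0.31 and -0.35 on the control arrays and 0.56, 0.49, 0.48 and 0.51 on the HX630 arrays. Both groups were tight and far apart. *Rgs16* rose by 0.82 (95% interval 0.74 to 0.90, adjusted p = 7.68e-07), a fold change of 1.77. Other RGS genes did not share a direction, since *Rgs3* (1.01, adjusted p = 3.07e-07) and *Rgs8* (1.21, adjusted p = 7.48e-07) rose and *Rgs4* fell by 3.19 (adjusted p = 4.88e-06), to 11.0% of its control signal. With normexp correction *Rgs8*, which is dim, was at 0.52 and not called, its other probe gave 0.47, and 1 of the 2 other probes of *Rgs3* gave -0.02 (mean of its probes 0.61, still called).

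For a single gene with groups that do not overlap, the two-sided exact permutation test over the 70 regroupings of the 8 arrays gives p = 0.0286, the smallest p that this design allows. This was reached by *Lpcat3*, *Rgs16*, *Mylip*, *Abcg1*, *Apoe* and *Smpdl3a*, whereas *Pltp* had p = 0.2 in the exact permutation test. In the plot of fold changes, the intervals of *Lpcat3* and *Rgs16* lay entirely above the fold threshold. Those of *Mylip*, *Apoe* and *Smpdl3a* reached across it and stayed clear of 0.

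**Figure D2:**
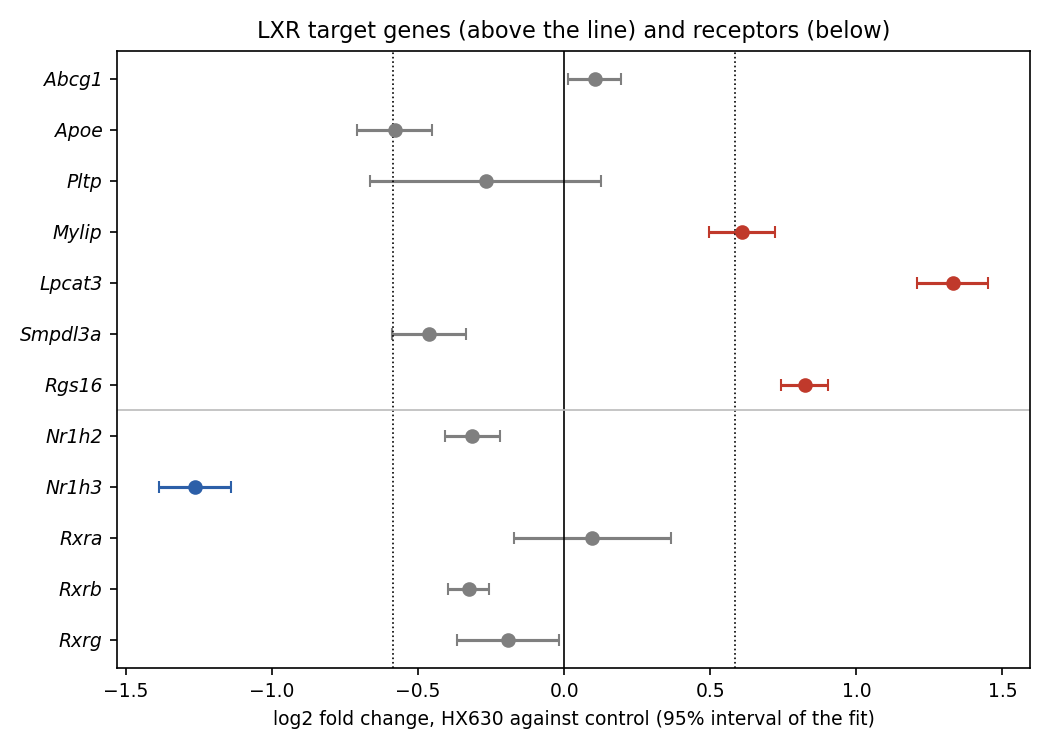
Difference between HX630 and control arrays (log2 fold change, horizontal axis) for the 7 LXR target genes tested and for the 5 LXR and RXR genes, with bars for the 95% interval of the limma fit on 8 arrays; dotted lines mark a fold change of 1.5 in either direction, red marks genes called higher, blue genes called lower and gray genes not called. *Lpcat3* at 1.33 and *Nr1h3* at -1.26 lie farthest from 0.

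Of the receptor genes themselves, *Nr1h3* fell. It encodes LXRα, and is itself an LXR target in human macrophages. Its signal was 0.95, 0.85, 0.81 and 0.86 on the control arrays and -0.30, -0.41, -0.50 and -0.38 on the HX630 arrays. The groups were far apart, with a difference of -1.26 (95% interval -1.39 to -1.14, adjusted p = 7.94e-07), so that 41.6% of the control signal was left. A further probe gave -1.34. *Nr1h2*, the gene of LXRβ, was at 2.96, 3.02, 2.95 and 2.95 on the control arrays and at 2.73, 2.67, 2.59 and 2.64 on the HX630 arrays. All HX630 arrays were lower, by 0.31 on average (difference -0.31, adjusted p = 3.2e-04), which is under the fold threshold. With spike-in scaling the difference was -0.10 (adjusted p = 0.157).

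*Rxrb*, the gene of RXRβ, was also lower on every HX630 array by less than the fold threshold (-0.33, adjusted p = 5.14e-05), or by -0.11 (adjusted p = 0.0799) with spike-in scaling. The 2 probes of *Rxra*, both dim, disagreed, at 0.10 (adjusted p = 0.503) and -0.68 (adjusted p = 0.00107), and its sign turned with normexp correction (-0.09) and with the mean of both probes (-0.29), while the value was 0.32 with spike-in scaling and between 0.01 and 0.16 with 1 array left out. *Rxrg* was at -0.19 (adjusted p = 0.0576) by its brighter probe with overlapping groups, and turned to 0.03 with scaling to the spike-in probes and to 0.02 with the mean of its probes. Of the 5 receptor genes, 1 was called lower and none higher, and the median difference was -0.31.

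**Figure D3:**
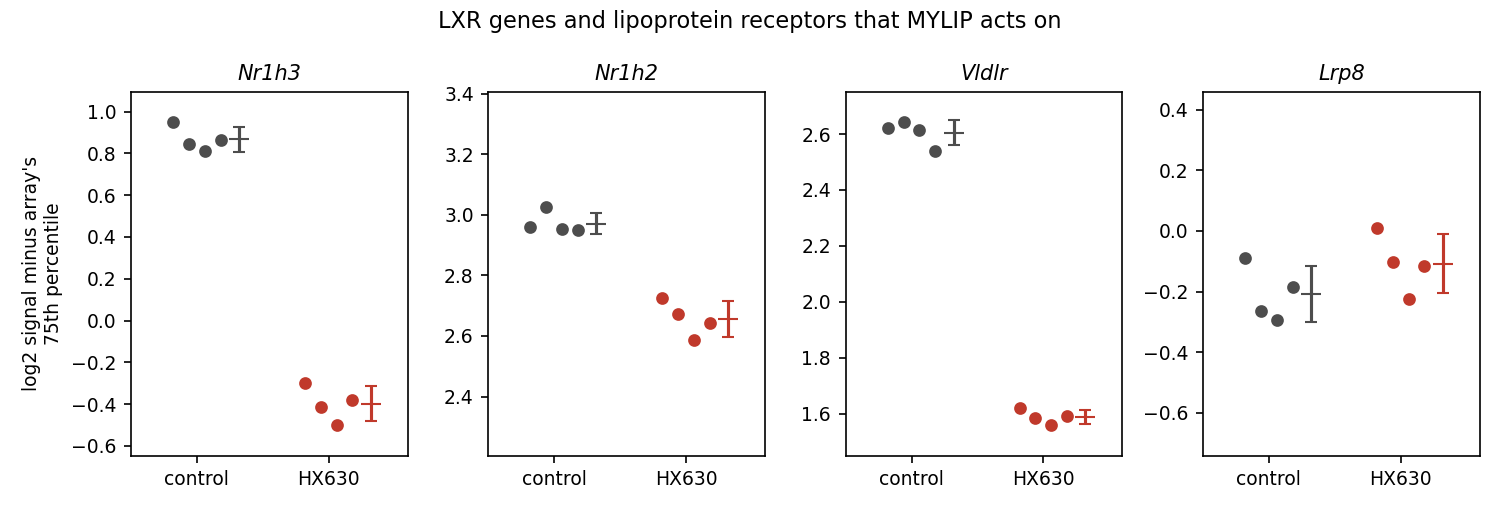
Signal of the LXR genes *Nr1h3* and *Nr1h2* and of *Vldlr* and *Lrp8* on each array (log2 intensity minus the 75th percentile of the array, each panel with its own vertical axis); points are single arrays and bars the mean ± SD of 4 arrays. HX630 arrays are lower for *Nr1h3*, *Nr1h2* and *Vldlr*, and overlap with the control arrays for *Lrp8*.

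The targets of LXR outside cholesterol efflux also had differences in both directions. On a list of 10 genes of fatty acid synthesis and lipid storage, 8 were tested, with 2 called higher, 1 called lower and a median of 0.17. *Scd1*, a stearoyl-CoA desaturase, rose by 1.06 (adjusted p = 6.2e-06). Its control arrays averaged 0.30 ± 0.14 (SD, n = 4) and its HX630 arrays 1.36 ± 0.016 (SD, n = 4). *Scd2*, the desaturase of brain, rose by 0.62 (adjusted p = 2.19e-06). *Mlxipl*, the gene of the glucose-sensing factor ChREBP, fell by 0.61 (adjusted p = 1.66e-05), and was not called under 3 other scalings of the arrays or normexp correction, with values from -0.57 to -0.39.

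Of 12 further LXR targets, 6 were tested, none was called higher and 2 were called lower, with a median of -0.28. *Abcg5*, *Abcg8* and *Cyp7a1*, which act in sterol excretion by liver and gut, were well above background on no control array. *Arl4c*, a small GTPase, fell by 0.61 (adjusted p = 1.15e-04) and *Slc2a4*, the insulin-regulated glucose transporter, by 0.59 (adjusted p = 2.09e-06), both close to the fold threshold. Neither was called with quantile normalization, with scaling to the median or to the spike-in probes, or with normexp correction. Leaving out HX630 replicate 1 put *Arl4c* at -0.58, and leaving out control replicate 1 or control replicate 4 put *Slc2a4* at -0.58, so that 1 gene of the list was called lower in each case. *Gramd1b*, which moves cholesterol from the plasma membrane to the endoplasmic reticulum, differed by 0.17 (adjusted p = 0.0155), with no overlap of the groups, and was not called. It was 0.26 with median scaling, 0.28 with normexp correction and 0.39 with spike-in scaling, also without a call.

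**Figure D4:**
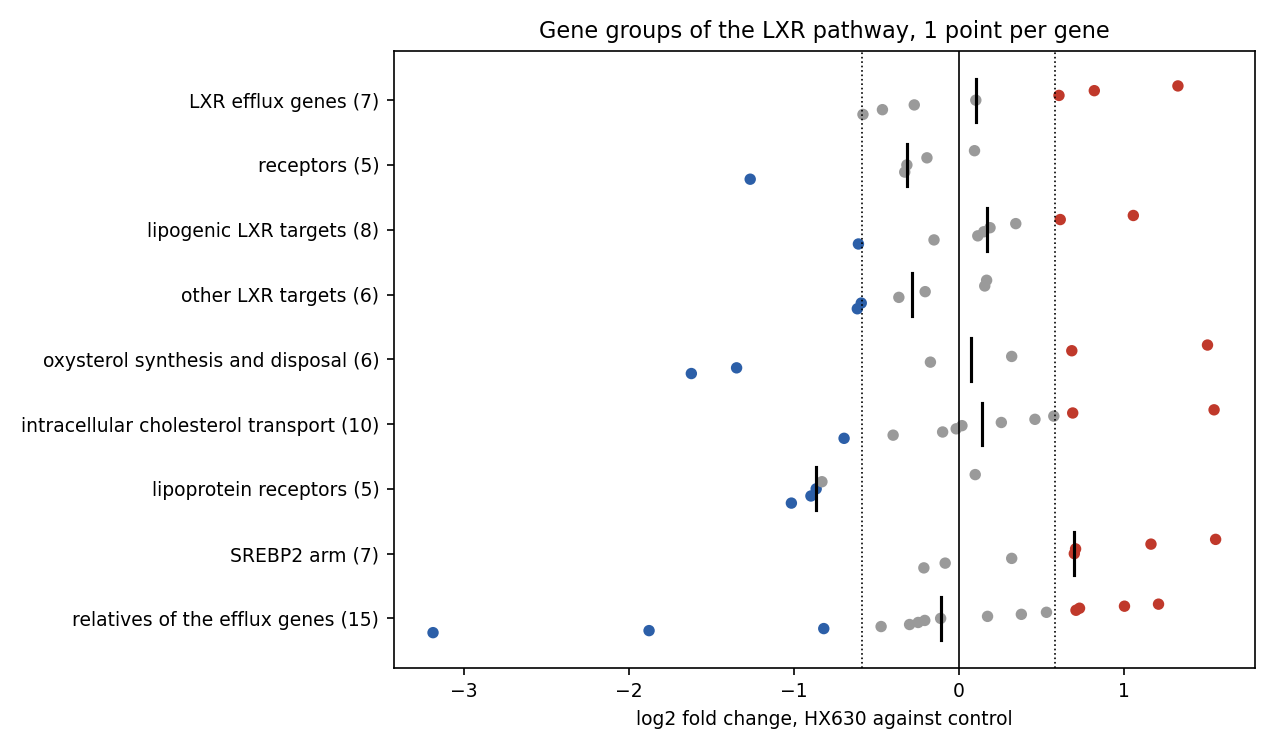
Difference between HX630 and control arrays (log2 fold change, horizontal axis) for each tested gene of 9 groups of the LXR pathway, with the number of genes tested in parentheses; each point is a gene (red called higher, blue called lower, gray not called), black bars are medians and dotted lines mark a fold change of 1.5. The group medians lie between -0.86 for lipoprotein receptors and 0.70 for the SREBP2 arm, and the LXR efflux genes lie on both sides of 0.

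Genes that make and remove the oxysterol ligands of LXR were called in both directions. Of 8 genes, 6 were tested, with 2 called higher, 2 called lower and a median of 0.08. *Cyp7b1*, which hydroxylates oxysterols for breakdown, rose by 1.51 (adjusted p = 7.85e-07). Its mean went from -1.03 ± 0.12 in the control to 0.48 ± 0.049 with HX630 (SD, n = 4 each). *Cyp39a1*, another oxysterol hydroxylase, rose by 0.69 (adjusted p = 1.99e-05). *Hsd3b7*, an enzyme of bile acid synthesis that acts on hydroxylated sterols, fell by 1.62 (adjusted p = 1.72e-07), to 32.5% of its control signal. *Cyp27a1*, which makes 27-hydroxycholesterol, is dim here and fell by 1.35 (adjusted p = 8.72e-05), or by 0.84 with normexp correction (-0.84). *Ch25h*, the cholesterol 25-hydroxylase, was well above background on no control array and was not tested.

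On the list of cholesterol movement inside the cell, 10 of 13 genes were tested, with 2 called higher, 1 called lower and a median of 0.14. *Soat1*, which esterifies cholesterol for storage, rose by 1.55 (adjusted p = 3.23e-05), but its probe is dim (well above background on 3 of the 4 control arrays) and was not called with normexp correction (0.28). *Stard4*, a soluble sterol carrier, rose by 0.69 (adjusted p = 7.24e-05), while its dimmer probe gave 0.13 and the mean of both (0.41) was not called. *Npc2*, which hands cholesterol out of lysosomes, fell by 0.70 (adjusted p = 9.66e-06), and was not called with spike-in scaling (-0.48).

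The SREBP2 arm, which raises cholesterol synthesis and uptake when sterols are low, moved in 1 direction among its called genes. Of 7 genes tested, 4 were called higher and none lower, with a median of 0.70, where 8.38% of all genes were called higher and 11.2% lower. The called genes were *Hmgcs1* (1.56), *Idi1* (1.17), *Sqle* (0.71) and *Srebf2* itself (0.70), with adjusted p between 5e-07 and 1.24e-05. With normexp correction *Srebf2* (0.53) was not called, nor was it with the mean of its 2 probes (0.58).

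Relatives of the 8 genes were compared to see whether their families shared a direction. Of 20 relatives, 15 were tested, with 4 called higher, 3 called lower and a median of -0.11. Among the acyltransferases next to *Lpcat3*, *Mboat1* fell by 1.88 (adjusted p = 3.3e-07), to 27.2% of its control signal, and *Mboat7*, which prefers arachidonic acid, was called higher at 0.71 (adjusted p = 8.56e-06). Among the transporters, *Abcg2*, a dim multidrug exporter, rose by 0.73 (adjusted p = 9.59e-04), or by 0.10 with normexp correction, without a call. *Abcg4*, the closest relative of *Abcg1*, differed by 0.53 (adjusted p = 2.68e-05), a fold change of 1.45 under the threshold. *Abca7*, the closest relative of *Abca1*, differed by 0.38 (adjusted p = 8.15e-04). The 0.22 that spike-in scaling adds takes both *Abcg4* and *Abca7* past the fold threshold. With that scaling 6 relatives were called higher, and with median scaling 5.

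All 6 corticotroph markers were well above background on all 8 arrays, with *Pomc*, the ACTH precursor, at 8.03 ± 0.18 (SD, n = 4) in the control and 7.57 ± 0.041 (SD, n = 4) with HX630, a difference of -0.45 that was not called (adjusted p = 0.00241). *Pcsk1*, the prohormone convertase, fell by 2.06 (adjusted p = 1.26e-07), and *Crhr1* (1.11, adjusted p = 5.12e-07) and *Neurod1* (0.72, adjusted p = 1.43e-04) rose. *Tbx19* (-0.37, adjusted p = 5.06e-04) and *Pitx1* (-0.32, adjusted p = 4.07e-04) were lower on every HX630 array by less than the fold threshold. Of 6 markers of other pituitary cells, *Prl* and *Tshb* were well above background on no array and *Fshb* on 2 control arrays and 1 HX630 array. *Lhb* was well above background on all 8 arrays, at -3.18 ± 0.56 in the control and -2.95 ± 0.11 with HX630 (SD, n = 4 each, adjusted p = 0.468). The dim *Gh* fell by 0.79 (adjusted p = 6.06e-04), and was not called with spike-in scaling (-0.58) or normexp correction (-0.55). *Pou1f1* was at 0.26 (adjusted p = 0.118), at -0.18 with normexp correction and at 0.40 without control replicate 1. It was 0.41 (adjusted p = 0.00205) with quantile normalization and 0.48 (adjusted p = 0.00787) with spike-in scaling, and was called under none of these. The summed level of the 6 markers, in units of the 75th percentile, ran from 0.142 to 0.263 in the control group and from 0.171 to 0.192 in the HX630 group.

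Macrophages, which express many LXR targets, have 5 markers among the probes here, and the brightest probe of each was well above background on all arrays. Another probe of *Adgre1* and another of *Mpeg1* were well above background on no array. By the brightest probe, all 5 markers had a difference below 0, and for 4 of them every HX630 array was below every control array. *Csf1r* fell by 0.72 (adjusted p = 6.48e-05) and the dim *Mpeg1* by 1.22 (adjusted p = 6.21e-04, or by 0.78 with normexp correction), while *Ptprc* (-0.45, adjusted p = 6.59e-04) and *Adgre1* (-0.41, adjusted p = 0.0822) were not called. The other probes of *Csf1r* gave -0.31 and -0.15, and it was not called with the mean of its probes (-0.39) or with spike-in scaling (-0.50). *Itgam* was at -0.01 by its brightest probe, with groups that overlapped, and at -0.43 and 0.07 by its other probes. In the control group the signal of these probes averaged 2.56, -4.08 and -4.67, in that order. In units of the 75th percentile, the summed level of the 5 markers ran from 5.47 to 7.60 in the control group and from 5.25 to 7.31 in the HX630 group, nearly all of it from the brightest probe of *Itgam*. Without *Itgam* it ran from 0.761 to 0.900 in the control group and from 0.475 to 0.564 in the HX630 group, so that the groups did not overlap. *Apoe* and *Smpdl3a* were lower on the same arrays, and the part of these markers in their values was not tested. Among fibroblast markers, *Lum* and *Pdgfra* were well above background on no array, *Col3a1* was at -0.31 (adjusted p = 0.3), or between -0.18 and -0.09 with quantile or spike-in scaling or without control replicate 1 or HX630 replicate 4, and the dim *Dcn* at 1.04 (adjusted p = 0.00708), which dropped to 0.04 with normexp correction. Of the 8 arrays, only leaving out control replicate 1 kept the call of *Dcn*, and without 1 of the other 7 its value was between 0.85 and 1.11.

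The genes with a pattern over the 8 arrays most like that of *Apoe*, the lowest of the set, were *Serac1*, *Card10*, *Fkbp7*, *Ankrd10* and *Naaa*, with Pearson's r between 0.9957 and 0.9973. For *Lpcat3*, which was taken for this after its values were seen, they were *Cdh2*, *Bard1*, *Plxna2*, *Pcdh17* and *Emb*, with r between 0.9991 and 0.9993. These values describe 8 arrays that share 2 groups and 2 slides, where any gene with tight groups far apart comes close to 1. The same was planned for *Abca1* and was not done, since its probe was not tested.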

How the data were processed

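Gene expression was measured in AtT20 cells on Agilent mouse arrays (Cy3 only), with 4 control and 4 HX630 samples grouped by their labels. Per the file headers, the authors obtained each intensity with Agilent Feature Extraction 10.7.3.1, as a processed signal after background subtraction and spatial detrending, with no scaling between arrays. The deposited log2 table of the same arrays, which the authors made in GeneSpring, matched the processed signals on the log2 scale after subtraction of the array-wise 75th percentile, in the same direction (column medians -3.91 to -3.67), and was used as an alternative. The median intensities of spot and local background served for normexp.

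The analysis ran in R 4.3.3 and limma 3.58.1. Control spots (1377 of 44397) and outlier spots were left out, spots of a probe were averaged on the log2 scale, and each array's 75th percentile was subtracted. Probes well above background on at least 4 of 8 arrays were tested with lmFit and eBayes over all 8 arrays, with Benjamini-Hochberg adjustment over 28553 probes, and the code was tested on simulated data. The brightest tested probe stood for a gene. RefSeq accessions paired 26055 of 39429 probes (66.1%) with symbols of a GRCm38.p6 table. The array's design uses another build, so coordinates are given for promoter windows only.

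The genes named outside the set were, from each list, up to 6 called genes with the largest changes (or, with fewer than 2 called, the 2 largest), besides the receptors and a few fixed names. *Fasn*, *Abcg4*, *Abca7*, *Mboat7*, *Tbx19*, *Pitx1* and genes not above background were named after their values were seen. The members and lists were chosen with earlier results of these data known, from general knowledge, and support nothing as independent evidence. The alternatives were other scalings, the deposited table, normexp with an offset of 50, filters, outlier spots, variance models, array weights, the methods' t-test, thresholds, probe means, a replicate block and each array left out. The number of arrays limits the precision, with a median standard error of 0.066 for a difference. Some genes of the lists are not reported here and were left out of their counts. The other experiments of the study are not analysed here.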

Additional observations from a re-analysis of the deposited data

Results flagged for a closer look

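In 7 of 102 groups of 4 arrays of the named genes, 1 array stood apart from the other 3 by Dixon's ratio of its gap to the range of the group, where chance gives about 5.1. None of the 7 was a group of the LXR efflux genes. In the control group, replicate 2 was apart for *Lrp1* (ratio 0.932), *Stard4* (0.904) and *Nr1h2* (0.849), and replicate 1 for *Arl4c* (0.891). With HX630, replicate 4 was apart for *Srebf2* (0.938) and *Gh* (0.857), and replicate 1 for *Rgs4* (0.888). Without the array concerned, the differences were -0.88 for *Lrp1*, 0.62 for *Stard4*, -0.30 for *Nr1h2*, -0.66 for *Arl4c*, 0.73 for *Srebf2*, -0.87 for *Gh* and -3.38 for *Rgs4*, each in the same direction as with all 8 arrays.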

How the results depend on the processing

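*Lpcat3* and *Rgs16* were called higher under all 16 alternatives and with each of the 8 arrays left out. The number of LXR efflux genes called higher was 2 with normexp or with the probes of a gene averaged, which both lost *Mylip* (0.58 and 0.46), and 3 otherwise. None was called lower, except 1 with array weights and 2 without the fold threshold (*Apoe*, at -0.62 and -0.58, and in the latter also *Smpdl3a* at -0.46). Leaving out each array in turn gave 0 to 1 called lower, with *Apoe* between -0.62 and -0.55. *Abcg1* turned to -0.012 with normexp, and *Abca1* without the filter on dim probes was at 0.11 (limma adjusted p = 0.786). Signs also turned for *Rxra* (-0.092 with normexp, -0.29 with the mean of probes), *Rxrg* (0.026 with spike-in scaling, 0.022 with the mean of probes) and *Pou1f1* (-0.18 with normexp). With quantile, median or spike-in scaling or normexp, 0 lipogenic targets and 0 of the other LXR targets were called lower, and with the percentile of detected probes 1 of the latter (1 to 2 with arrays left out). Of the genes of cholesterol transport, 0 were called higher with normexp, 1 with probes above background on all arrays, 1 with the mean of probes and 4 without the fold threshold, and 0 were called lower with spike-in scaling and 2 without the fold threshold. With normexp, 1 relative was called higher, against 5 with median scaling and 6 with spike-in scaling. Without the fold threshold, 3 receptors and 1 SREBP2 gene were called lower, and 7 relatives higher and 6 lower, and without the filter on dim probes 5 relatives lower. The causes were not tested. Spike-in scaling, on 8 probes, moved the median of all genes by 0.22, and the share of calls that were higher was 42.9%, against 52.1% with quantile, 54.7% with median and 70.5% with spike-in scaling. Same-numbered arrays did not deviate together in every case (correlations 0.52, -0.0093, 0.24 and 0.38), and not every array correlated best with its own number. With the replicate number as a block, 3 efflux genes were called higher and 0 lower, and 8.71% of all genes were called higher and 11.6% lower. A slide block could not be fitted, since 0 slides held both groups. Dim probes, as of *Abca1* and *Pltp*, limit what can be read of their genes.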
